A study of Mus musculus with 4 samples.

Results

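The genes described here encode the enzymes and the chaperone that fold, hydroxylate and cross-link collagen: the prolyl 4-hydroxylase subunits P4ha1, P4ha2 and P4hb, the lysyl hydroxylases Plod1, Plod2 and Plod3, the collagen chaperone HSP47 (Serpinh1), and the lysyl oxidases Lox, Loxl1 and Loxl2. They were measured in mouse embryonic stem (ES) cells on 4 Affymetrix arrays, 1 per culture: the lines ko1 and ko2, homozygous for a knock-out of BAF250, a line heterozygous for it, and a wild type line. BAF250 is an ARID protein found in BAF, a SWI/SNF complex that remodels chromatin. All cultures were grown without feeder cells in gelatin-coated wells, in medium with serum and LIF, per the labels. The labels name neither the parental line nor the part of the gene that was altered. They do not say whether ko1 and ko2 are independent clones, and the word line is used here for each sample. Nothing in them says that ko1 and ko2 were more than 1 culture each, so the spread between these samples may be technical. The platform annotation assigned 18 of the 45101 probe sets to these 10 genes. Of the 18, 16 carried a single symbol and represented 9 genes; both Loxl2 probe sets were annotated to a predicted gene as well, so no Loxl2 value is given. Only 11 of the 16 had a mean signal above 2.55, the filter applied to all probe sets, and entered the fit with 27022 probe sets in all. The genes were selected on their function and on earlier values of the homozygous minus wild type difference, so those values are a description and carry no test. Comparisons with heterozygous share the homozygous arrays, so their p-values do not stand apart from that choice. The genes lie on mouse chromosomes 10 (P4ha1), 11 (P4ha2 and P4hb), 4 (Plod1), 9 (Plod2 and Loxl1), 5 (Plod3), 7 (Serpinh1), 18 (Lox) and 14 (Loxl2).

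Collagen chains are modified in the endoplasmic reticulum (ER) before they can leave the cell. Prolyl 4-hydroxylase, a tetramer of alpha subunits (P4ha1, P4ha2) and the protein disulphide isomerase P4hb, makes the hydroxyproline that stabilises the triple helix. The lysyl hydroxylases make hydroxylysine, a site for sugars and cross-links. HSP47 binds the folded triple helix and escorts it out of the ER, and the lysyl oxidases act outside the cell, where they start the cross-links. The hydroxylases need iron, oxoglutarate and oxygen. In the early mouse embryo the parietal endoderm is known for laying down a thick basement membrane rich in type IV collagen.

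The arrays differed in level and in a sign of RNA quality. Array medians lay between 2.61 and 2.74 in the homozygous and heterozygous lines, against 4.01 in wild type, so log2 differences and folds are given relative to the median probe set of the same comparison, while calls rest on the values as deposited. That median was -0.74 when wild type was taken from homozygous, -0.06 when heterozygous was taken from homozygous, and -0.66 when wild type was taken from heterozygous. Background was taken as the brightest of 27 unspiked bacterial control probe sets, at 5.55, 3.82, 6.92 and 7.57 in ko1, ko2, heterozygous and wild type. For the actin controls, 3' over 5' signal gave 5.01 for ko1, 2.61 for ko2 and 2.86 for heterozygous, against 1.30 for wild type. For the Gapdh controls the same ratio was 2.57 for ko1, 1.21 for ko2, 1.27 for heterozygous and 1.10 for wild type. The part of these ratios in the results was not tested. Arid1a, which encodes BAF250a, read 7.03 and 3.57 in ko1 and ko2 on its brighter probe set, against 50.4 in heterozygous and 109 in wild type; the other Arid1a probe set read 17.3 and 1.06, against 24.1 and 42.9, so ko1 lay closer to the heterozygous array there.

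In all 11 tested probe sets both homozygous arrays were above background, whereas the heterozygous array was at or below background in 7 and the wild type array in 5. In 10 of these 11, both homozygous arrays lay above the other 2 arrays in deposited signal, a pattern found in 11.2% of all probe sets tested; Lox was the exception. In 0 of the 11 both lay below the other arrays, which 26.1% of all probe sets tested did. Over all 16 probe sets the pattern held in 12, against 11.9% of all probe sets without the filter. The choice of genes and the filter favour probe sets that are bright in the homozygous lines, so these counts are a description and nothing is read from them. In bulk RNA, fewer cells of a type and less RNA per cell cannot be told apart.

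**Figure D1:**
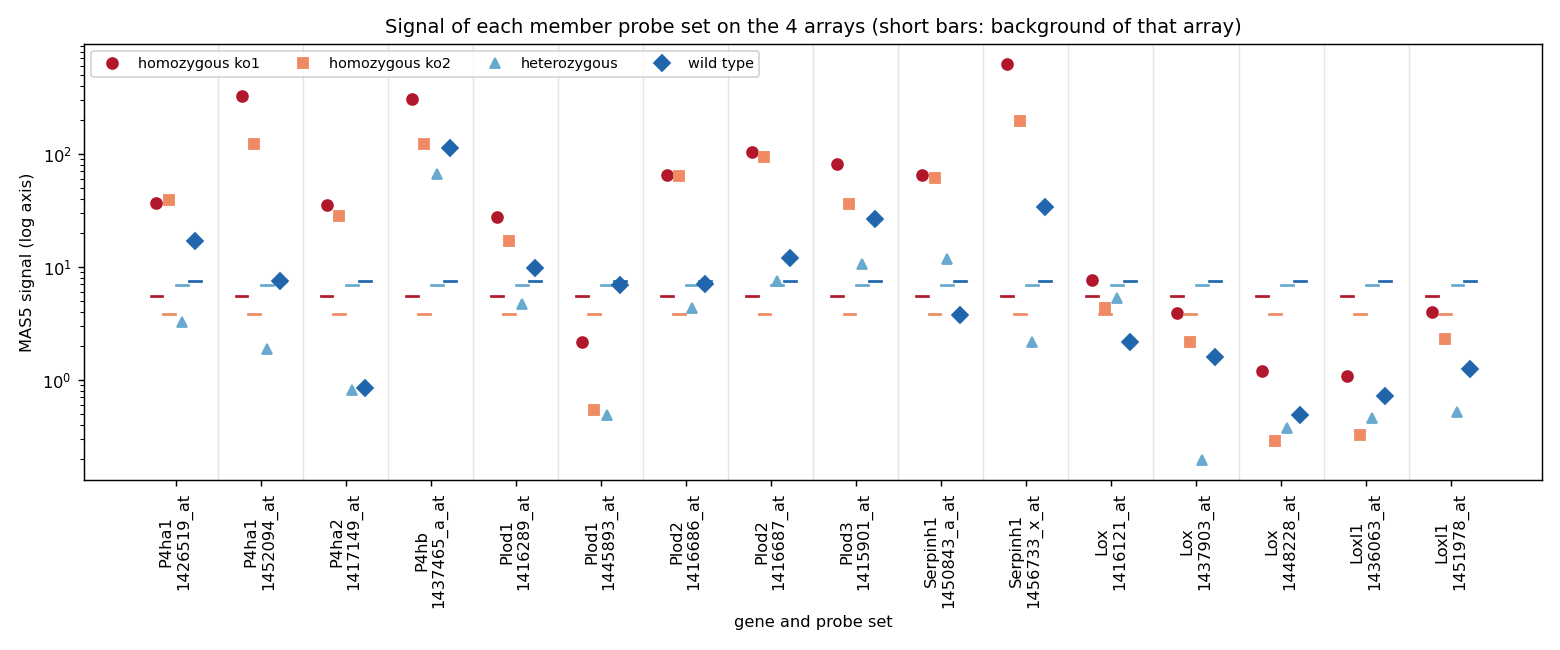
MAS5 signal (log axis) of each of the 16 probe sets of 9 genes on the 4 arrays; each point is 1 array and the short bar of the same colour is the background of that array. The P4ha1, P4ha2, Plod2 and Serpinh1 probe sets are far above background in ko1 and ko2, whereas those of Loxl1 and 2 of the 3 Lox probe sets are below background on every array.

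P4ha1 encodes the main catalytic alpha subunit of prolyl 4-hydroxylase, and it stood highest in the homozygous lines on both of its probe sets. On the brighter one (1452094_at) it read 324 in ko1 and 121 in ko2, against 1.88 in heterozygous and 7.54 in wild type. The heterozygous and wild type values were both below background, so only the homozygous lines gave a measured level. Relative to the median probe set, homozygous stood at least 40.4-fold above wild type, a log2 difference of 5.34 ± 0.59 (SE; 2 homozygous arrays and 1 wild type array). Here the bound is the fitted fold itself, since the wild type signal lay just under its background. P4ha1 rose at least 29.8-fold against heterozygous on this probe set (6.34 ± 0.59, limma adjusted p = 5.76e-07). That call is a description, since only the homozygous arrays, which served to choose the genes, were above background. On the other probe set (1426519_at) P4ha1 read 36.7 and 39.4 in ko1 and ko2, against 3.29 in heterozygous, below background, and 16.9 in wild type. The arrays kept the same order of groups, with heterozygous lowest, but the difference from wild type was much smaller, 1.88 ± 0.60 or 3.67-fold. Against heterozygous this probe set rose at least 5.72-fold (3.35 ± 0.60, limma adjusted p = 0.00701). The log2 differences of the 2 P4ha1 probe sets thus lay 3.46 apart for homozygous minus wild type. Heterozygous minus wild type was -1.03 ± 0.68 and -1.49 ± 0.70 on them, neither past the test (limma adjusted p = 0.724 for each).

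P4ha2, the alternative alpha subunit, was below background in both lines that kept an intact allele. Its only probe set read 35.2 in ko1 and 28.1 in ko2, against 0.81 in heterozygous and 0.856 in wild type. The homozygous lines lay close together and far above the other arrays. Homozygous stood at least 6.92-fold above wild type (fitted log2 difference 5.13 ± 0.90) and at least 4.72-fold above heterozygous (4.49 ± 0.90). The probe set passed the filter of 2.55 through the homozygous arrays alone. Its call against heterozygous is therefore a description, and it was lost without the filter or without the intensity trend. P4ha3, the gene of a further alpha subunit, read between 0.181 and 0.661, below background on all 4 arrays, and was not tested.

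P4hb encodes the beta subunit, which is also the general protein disulphide isomerase of the ER. It read 306 and 123 in ko1 and ko2, against 66.5 in heterozygous and 112 in wild type. It was above background everywhere, and ko2 lay just above wild type. The log2 difference was 1.53 ± 0.58 (2.89-fold) for homozygous minus wild type and 1.59 ± 0.58 (3.02-fold) for homozygous minus heterozygous, the last without passing the test (limma adjusted p = 0.651). These differences were smaller than those of P4ha1 and P4ha2. From wild type, the dimmer P4ha1 probe set was close to P4hb, at 1.88 ± 0.60. Whether the genes differed from each other was not tested.

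The sequence upstream of the transcription start is shown for the members with a RefSeq promoter whose differences were largest, P4ha1, P4ha2 and Serpinh1. Each line gives the 250 bases before the start (build GRCm38.p6), 5′ to 3′ on the strand of the gene. Capitals mark ACGTG or its reverse complement CACGT (the pair overlap where both are present), 1 form of the core of the hypoxia response element. That element is known to drive the alpha subunit genes under low oxygen. The other form of the core, GCGTG, was neither searched nor marked, and it occurs in the printed P4ha1 and P4ha2 sequences. The regions are chr10:59323046-59323295 on the plus strand, chr11:54100674-54100923 on the plus strand and chr7:99353240-99353489 on the minus strand.
P4ha1: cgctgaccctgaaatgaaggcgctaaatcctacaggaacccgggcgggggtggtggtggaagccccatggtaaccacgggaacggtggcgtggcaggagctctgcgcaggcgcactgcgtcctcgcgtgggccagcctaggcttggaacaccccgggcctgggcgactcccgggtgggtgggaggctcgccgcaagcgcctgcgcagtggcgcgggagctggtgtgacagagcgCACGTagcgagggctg
P4ha2: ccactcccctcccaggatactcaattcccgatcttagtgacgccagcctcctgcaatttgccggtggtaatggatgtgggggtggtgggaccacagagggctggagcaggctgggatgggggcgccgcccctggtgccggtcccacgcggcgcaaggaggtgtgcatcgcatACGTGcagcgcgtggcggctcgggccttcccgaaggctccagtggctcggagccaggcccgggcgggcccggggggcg
Serpinh1: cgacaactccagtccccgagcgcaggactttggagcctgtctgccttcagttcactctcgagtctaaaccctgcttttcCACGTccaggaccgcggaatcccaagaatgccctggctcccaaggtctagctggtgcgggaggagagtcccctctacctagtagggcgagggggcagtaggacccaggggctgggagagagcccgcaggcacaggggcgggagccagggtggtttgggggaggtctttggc
The match began at -16 in P4ha1, at -78 in P4ha2 and at -171 in Serpinh1, counted back from the start. Of the 6 members whose RefSeq promoter was searched, 5 held ACGTG or CACGT (P4ha1, P4ha2, P4hb, Plod3 and Serpinh1). Plod1 held neither, though it held GCGTG. Of 32851 promoter windows of this length, 16.6% held ACGTG or CACGT. Among the 10217 windows whose GC content lay within the members' range of 55.6% to 70.0%, 21.9% did. CCAAT, searched on both strands, was in 2 of the 6 (P4hb and Plod3; 33.8% of all windows), apart from the ACGTG match in each. GAANNTTC, the core pair of the heat shock element, which reads the same on both strands, was in 0 of the 6 (6.69% of all windows). In the main fit P4ha1, P4ha2 and Serpinh1 were called against heterozygous on at least 1 probe set, and Plod3, P4hb and Plod1 were not. The P4ha2 call is a description, as said above, and Plod3 was called when each gene had only its brightest probe set. Whether the motif goes with these calls was not tested.

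Among the lysyl hydroxylases, both Plod2 probe sets rose against heterozygous, with nearly equal values. Plod2 hydroxylates the lysines of the telopeptides and so sets the kind of cross-link that forms. One probe set (1416687_at) read 104 in ko1 and 93.0 in ko2, against 7.49 in heterozygous and 11.9 in wild type, above background on every array. The other (1416686_at) read 65.6 and 64.3 in ko1 and ko2, against 4.32 in heterozygous and 7.06 in wild type, the last 2 below background. Both homozygous arrays lay above the other arrays on each probe set, as they did in 11.2% of all probe sets tested. Homozygous minus wild type was 3.71 ± 0.53 (13.1-fold) on the first and 3.82 ± 0.58 on the second, where the bound again equals the fitted fold (at least 14.1-fold). Against heterozygous, Plod2 rose 12.6-fold (3.66 ± 0.53, limma adjusted p = 0.000619) and at least 9.76-fold (3.77 ± 0.58, limma adjusted p = 0.00121). The 2 probe sets differed by 0.11 in the log2 difference from wild type, by 0.12 in that from heterozygous and by 0.00 for heterozygous minus wild type, which was 0.03 on each. Plod2 differed little between the homozygous lines: ko1 minus ko2 was 0.00 and -0.13 relative to the median probe set.

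Plod1 and Plod3 were higher in the homozygous lines in signal without passing the test. Plod3, which can also add the sugars to hydroxylysine, read 81.3 and 35.7 in ko1 and ko2, against 10.7 in heterozygous and 26.3 in wild type. Its log2 difference was 1.75 ± 0.57 (3.37-fold) from wild type and 2.33 ± 0.57 (5.02-fold) from heterozygous (limma adjusted p = 0.112; 0.035 when each gene was represented by its brightest probe set alone). Plod1, which acts on lysines within the helix, read 27.5 and 16.8 in ko1 and ko2, against 4.67 in heterozygous, below background, and 9.80 in wild type (1416289_at). This gave 1.82 ± 0.69 (3.54-fold) from wild type and 2.11 ± 0.69 (at least 3.24-fold) from heterozygous (limma adjusted p = 0.465). A second Plod1 probe set (1445893_at) read between 0.486 and 6.89 with wild type brightest, below background on all arrays, and its mean signal of 2.52 lay just under the filter; the dimmest member probe set above it, of Lox, had a mean of 4.86. Its log2 difference of -1.29 for homozygous minus wild type was the only negative one among the 16 probe sets.

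Serpinh1, the gene of the collagen chaperone HSP47, was high in both homozygous lines, but its probe sets disagreed on which of the other arrays was lower. One probe set (1450843_a_at) read 65.2 in ko1 and 60.8 in ko2, against 11.8 in heterozygous and 3.74 in wild type, with wild type below background. The other (1456733_x_at) read 627 and 194 in ko1 and ko2, against 2.16 in heterozygous, below background, and 33.7 in wild type. The _x_at suffix marks, on Affymetrix arrays, probes that may also match other transcripts. Against wild type the probe sets gave similar values, at least 13.9-fold (fitted log2 difference 4.59 ± 0.57) and 17.0-fold (4.09 ± 0.59). Against heterozygous they differed in size: Serpinh1 rose at least 52.4-fold on the second (7.01 ± 0.59, limma adjusted p = 1.3e-07), whereas the first gave 5.31-fold (2.41 ± 0.57) and did not pass (limma adjusted p = 0.0844). Heterozygous minus wild type was 2.16 ± 0.66 on the first and -2.94 ± 0.68 on the second, opposite in sign. Each of these rests on an array below background, so they are bounds, of at least 2.46-fold higher and at least 3.08-fold lower in heterozygous. Neither passed (limma adjusted p = 0.724 and 0.164); with 1 probe set per gene the second did, as the lone member called in that comparison (-2.92 ± 0.66, limma adjusted p = 0.0245).

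**Figure D2:**
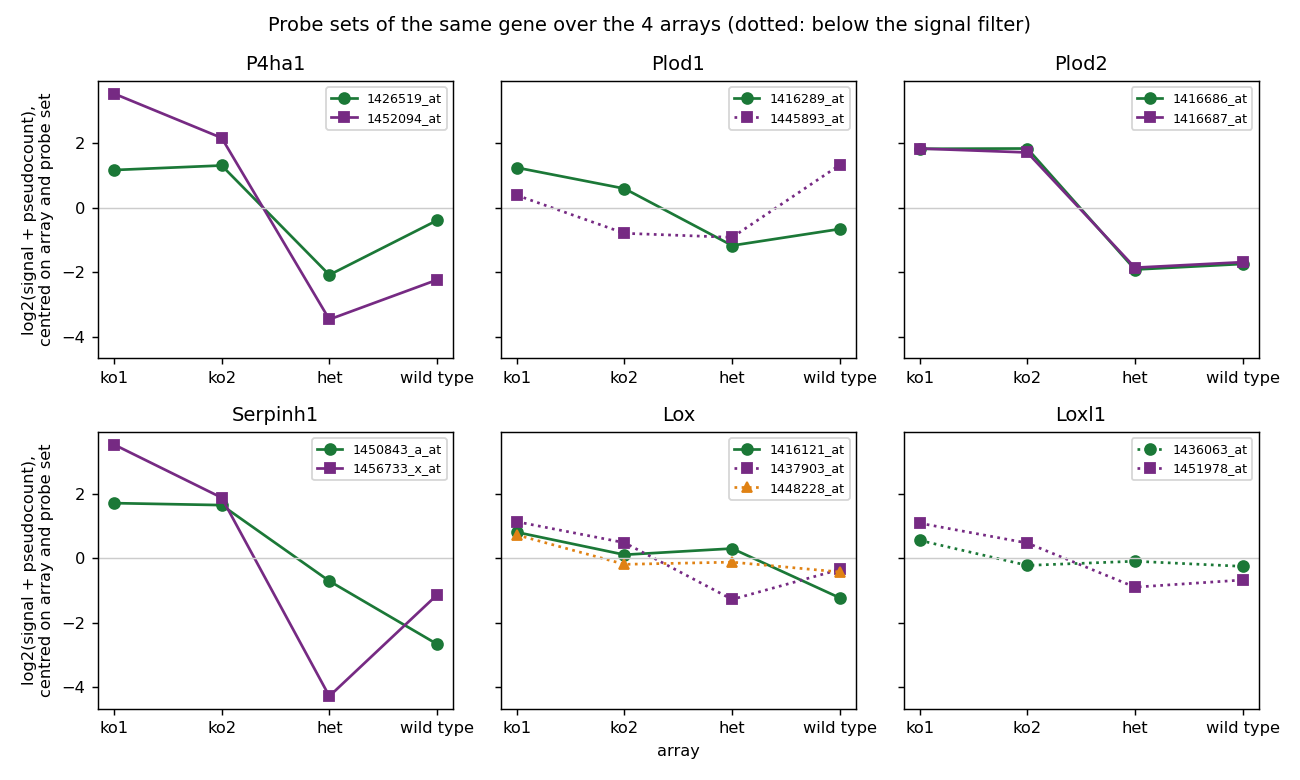
Log2(signal + pseudocount) of the probe sets of each gene that had more than 1, centred on the median of each array and on the mean of each probe set (vertical axis), over the 4 arrays (horizontal axis). The Plod2 lines coincide, and the Serpinh1 lines cross between heterozygous and wild type. The P4ha1 lines are both lowest in heterozygous but differ in size and in the step from ko1 to ko2.

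The lysyl oxidase genes were dim. Lox, which oxidises lysine and hydroxylysine in secreted collagen and elastin, was above background only in ko1 and ko2, on 1 of its 3 probe sets (1416121_at). That probe set read 7.68 and 4.34 in ko1 and ko2, against 5.28 in heterozygous and 2.15 in wild type, so the heterozygous value lay between the homozygous lines. The log2 difference was 1.93 ± 1.08 (at least 1.27-fold) from wild type and 0.18 ± 1.08 from heterozygous (limma adjusted p = 0.987). The other Lox probe sets read at most 3.89 and the 2 Loxl1 probe sets at most 4.01, below background on all 4 arrays, so these give only an upper bound on the level. Loxl3 read 2.29 and 14.1 in ko1 and ko2, against 3.53 in heterozygous and 8.29 in wild type. Loxl4 read 3.57 and 5.64, against 1.55 and 13.0. Neither of these paralogs passed the test in any of the 3 comparisons.

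In numbers, 6 of the 11 tested probe sets (P4ha1, P4ha2, both of Plod2 and both of Serpinh1) were called higher in homozygous than in wild type and 0 lower, where 0.211% of all probe sets tested were called higher and 0.2% lower. Since the genes were chosen with this contrast in view, nothing is read from that count. These calls ended when the intensity trend of the variance was left out, when no filter was set on dim probe sets or when probe sets were averaged per gene (0 called in each). Against heterozygous 6 of the 11 rose (both of P4ha1, P4ha2, both of Plod2 and 1 of Serpinh1) and 0 fell, against 0.337% and 0.0259% of all probe sets tested. This comparison shares the homozygous arrays with the first, so its values do not stand apart from the choice of members. Here 0 were called without the trend, 2 without the filter and 3 genes of 7 with probe sets averaged (Plod2, P4ha1 and Serpinh1). All 11 had a positive difference from wild type and from heterozygous relative to the median probe set, and the medians were 3.71 and 3.35; over all 16 probe sets they were 1.85 and 2.22. The filter kept a probe set that was bright in the homozygous lines alone, so the medians over the 11 are no measure of the 10 genes.

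**Figure D3:**
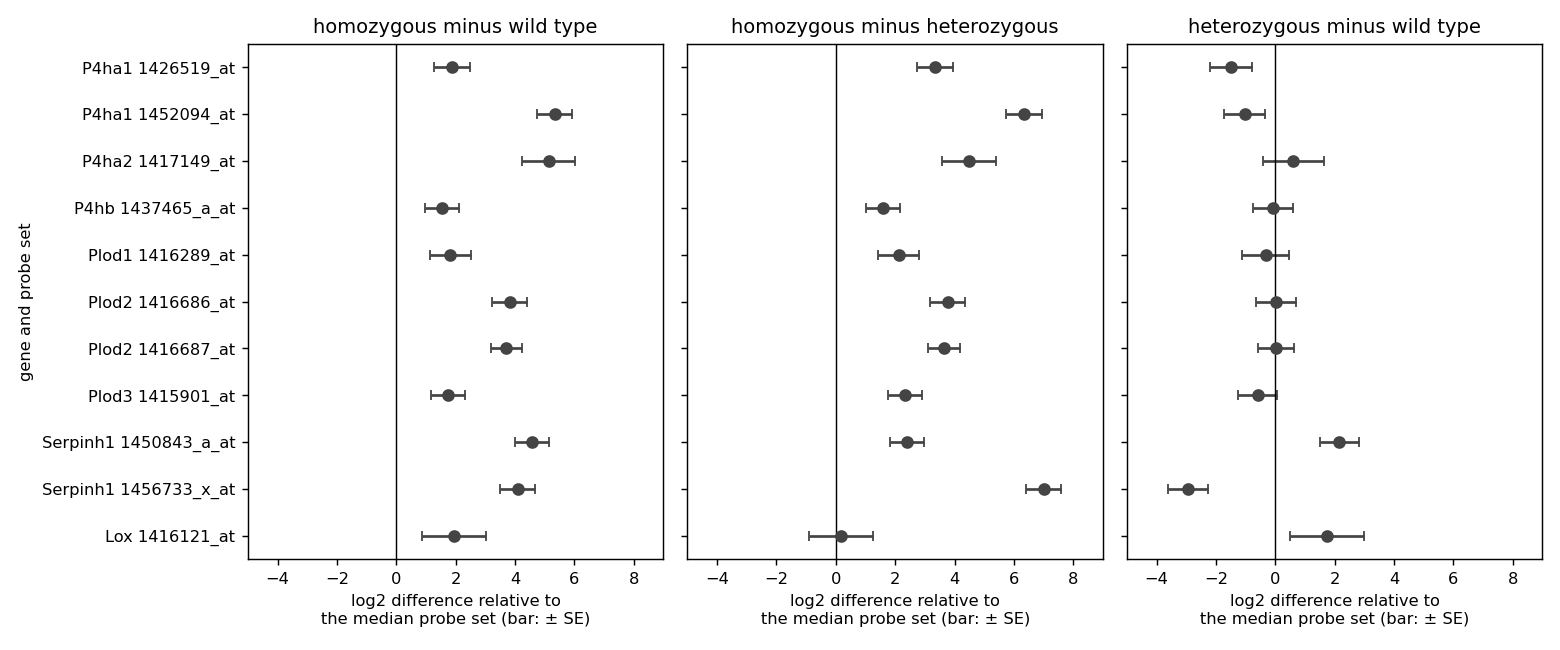
Log2 difference relative to the median probe set (horizontal axis, bars ± SE from the fit) for the 11 tested probe sets, in homozygous minus wild type, homozygous minus heterozygous and heterozygous minus wild type. The first and second panels lie to the right of 0 for every probe set, and in the third the Serpinh1 probe sets lie at 2.16 and -2.94.

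Heterozygous cells gave no such calls. None of the 11 probe sets was called between heterozygous and wild type by limma (0% of all probe sets tested in either direction); at an unadjusted p under 0.05, 1 was higher (Serpinh1) and 3 lower (both of P4ha1 and 1 of Serpinh1), against 77 and 1609 of the 27022. The median of the 11 was -0.08, with 5 above and 6 below the median probe set. This comparison has 1 array on each side and rests on the spread between the homozygous lines.

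**Figure D4:**
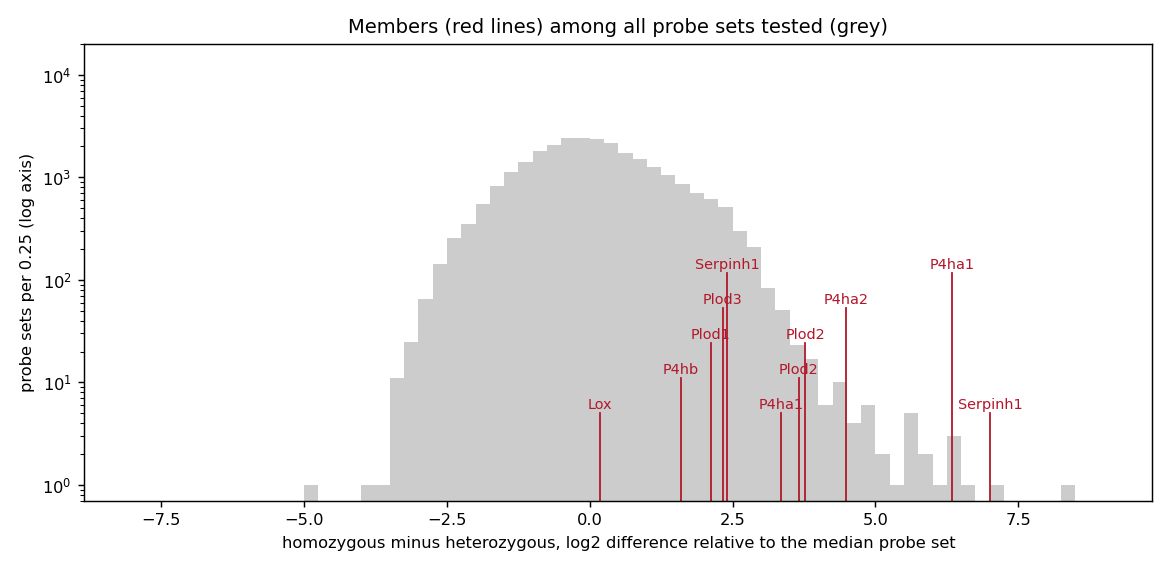
Homozygous minus heterozygous log2 differences relative to the median probe set, for all 27022 probe sets tested (grey, number per bin on a log axis) and for the 11 tested probe sets of the collagen folding genes (red lines; their heights only separate the names). The brighter P4ha1 probe set at 6.34 and the Serpinh1 _x_at probe set at 7.01 lie in the far right tail and Lox at 0.18 near the centre.

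The members spread over a range in the difference between the homozygous lines. Relative to the median probe set, ko1 exceeded ko2 by 1.53 on the Serpinh1 _x_at probe set, 1.25 on the brighter P4ha1 probe set, 1.15 on P4hb, 1.01 on Plod3, 0.58 on Lox and 0.53 on Plod1. The other Serpinh1 and P4ha1 probe sets stood at -0.06 and -0.26, both Plod2 probe sets near 0 and P4ha2 at 0.16. For P4ha1 and Serpinh1 the gap between the lines was therefore seen on 1 probe set and not on the other. All of these lie between -2.34 and 2.19, the 5th and 95th percentiles over all probe sets tested. Of those, 53.7% were at or below background in ko1 and 40.1% in ko2, so the range is no measure of the spread of bright probe sets. The actin ratio was 5.01 in ko1 and 2.61 in ko2; its part in these gaps was not tested.

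The other genes of collagen modification and export gave 1 call. Of 29 genes on that list 23 were tested; against wild type 0 were called (0.262% of genes were called higher on their brightest probe set, 0.226% lower) and the median difference was 1.13. Against heterozygous 1 of 23 rose and 0 fell (0.488% and 0.0291% of genes), with a median of 0.76. The gene that rose was Pxdn, peroxidasin, which forms the sulfilimine cross-links of type IV collagen: it read 93.0 and 50.2 in ko1 and ko2, against 9.77 in heterozygous and 13.9 in wild type (2.78 ± 0.56 from heterozygous, limma adjusted p = 0.0213). In the prolyl 3-hydroxylase complex, P3h1 read 10.1 and 4.95 against 1.42 in heterozygous and 3.69 in wild type. Its partner Crtap read 75.5 and 22.2 against 15.1 and 44.6. Ppib, the cyclophilin of that complex, read 171 and 114 against 53.7 in heterozygous and 75.4 in wild type, or 1.43 ± 0.52 above heterozygous (limma adjusted p = 0.673). P3h2, a prolyl 3-hydroxylase that acts on type IV collagen, read 22.2 and 8.85 in ko1 and ko2, above background, against 1.09 in heterozygous and 1.99 in wild type, below it. Its difference of 3.12 ± 1.04 from heterozygous did not pass (limma adjusted p = 0.486). P3h3 and P3h4 stood at 0.76 and 0.59 from heterozygous, also without passing. Colgalt1, which adds galactose to hydroxylysine, read 55.5 and 27.7 against 15.1 in heterozygous and 16.6 in wild type, 1.40 ± 0.58 above heterozygous (limma adjusted p = 0.794).

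Among the substrate chains, the calls fell on Col4a1 and Col4a2, which together form the most widespread type IV collagen. Of 20 collagen chain genes 16 were tested, and 2 rose against heterozygous and 0 fell: Col4a1, at 1125 and 663 in ko1 and ko2 against 11.3 in heterozygous and 10.3 in wild type, and Col4a2, at 763 and 379 against 6.60 and 1.15. The same 2 were the chains called against wild type. The other type IV chains did not pass or were too dim to test: Col4a6 stood at 3.04 ± 1.24 from heterozygous (limma adjusted p = 0.762) and Col4a4 at -0.58 ± 1.28, and Col4a3 and Col4a5 were below background on every array. Of the fibrillar chains, which the same enzymes also modify, Col1a2 read 16.5 and 25.6 in ko1 and ko2, against 2.85 in heterozygous and 7.84 in wild type (2.65 ± 0.73 from heterozygous, limma adjusted p = 0.226). Col11a1 read 7.06 and 2.06, against 0.758 in heterozygous and 0.734 in wild type. Col1a1 read 4.43 and 10.9, against 5.54 and 5.39, and Col3a1 0.400 and 4.44, against 0.359 and 6.52. Col2a1 and Col5a1 stood at -0.22 and -0.71 from heterozygous, Col5a2 was below background throughout, and no fibrillar chain passed the test.

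Lists that share a compartment or a cofactor with the enzymes gave 3 calls against heterozygous, where 0.488% of all genes were called higher. Of 24 ER chaperones and oxidoreductases, 1 rose against heterozygous, Kdelr3, a receptor that returns proteins to the ER (57.4 and 45.6 in ko1 and ko2, against 5.04 in heterozygous and 10.9 in wild type; limma adjusted p = 0.00701), and 0 were called against wild type. Their medians were 1.46 from heterozygous and 1.37 from wild type. Of 21 hypoxia response genes tested, 2 rose against heterozygous. One was Epas1, which encodes a hypoxia-inducible factor alpha subunit (167 and 83.8, against 3.85 in heterozygous and 13.9 in wild type; 4.78 ± 0.56, limma adjusted p = 3.6e-05), and the other Mxi1, a MYC antagonist (26.0 and 18.2, against 1.29 and 11.0; 3.57 ± 0.74, limma adjusted p = 0.0274). Epas1 alone was also called against wild type, and the list's medians were 0.95 from heterozygous and 0.80 from wild type. Of 23 dioxygenases that use iron and oxoglutarate as the hydroxylases do, 0 were called against heterozygous by limma and 1 was called lower than wild type: Tet1, which oxidises 5-methylcytosine (1.03 and 8.33 in ko1 and ko2, against 13.3 and 53.6). Their medians were 0.61 and 0.00, against 0.03 and -0.01 over all genes tested.

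**Figure D5:**
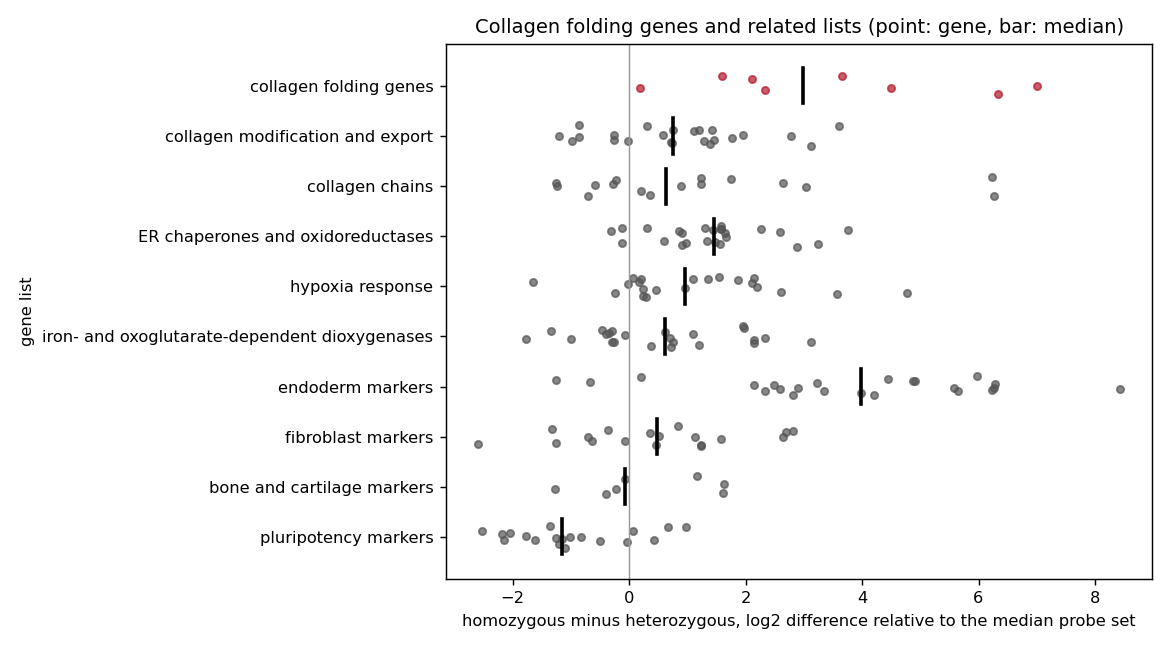
Homozygous minus heterozygous log2 differences relative to the median probe set (horizontal axis) for the brightest tested probe set of each of 8 collagen folding genes (red) and of each gene of 9 related lists (grey); black bars are medians. The bar stands at 2.99 for the collagen folding genes, 3.97 for the endoderm markers, 0.76 for other collagen modification genes and -1.15 for the pluripotency markers.

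Of the marker lists, the endoderm list moved most with these genes, with medians of 3.80 from wild type and 3.97 from heterozygous. The medians were 0.74 and 0.49 for fibroblast markers, -0.25 and -0.07 for bone and cartilage markers, and negative for pluripotency markers. Of 24 endoderm markers, 23 were tested. Against heterozygous 12 rose and 0 fell (0.488% and 0.0291% of all genes), and 10 were called higher than wild type (0.262% of all genes). Their summed signal was 7794 in ko1 and 4318 in ko2, against 271 in heterozygous and 407 in wild type, and 17 of the 24 were at or below background in heterozygous and 15 in wild type, against 2 in each homozygous line. Besides the type IV chains, which 2 lists share, the markers called higher than wild type included Pth1r, a parathyroid hormone receptor of parietal endoderm, and Srgn, the proteoglycan serglycin. Pth1r read 137 and 57.1 in ko1 and ko2, against 0.512 in heterozygous and 0.43 in wild type, both below background, so at least 19.5-fold above wild type. Srgn read 129.7 and 63.9, against 2.50 in heterozygous and 1.08 in wild type, or at least 20.04-fold above wild type. Of 22 fibroblast markers with a probe set, 18 were tested, and 2 rose against heterozygous, Ccn2 and Vim; the summed signal was 385 and 299 in ko1 and ko2, against 159 in heterozygous and 234 in wild type. Pdgfrb, S100a4, Prrx1 and Col5a2 of that list were at or below background on all 4 arrays. Of 9 bone and cartilage markers with a probe set, 7 were tested and 0 called by limma in either comparison; their summed signal was 31.9 and 34.6, against 36.2 in heterozygous and 68.7 in wild type. Of 19 pluripotency markers, 8 were called lower than wild type (0.226% of all genes) and 0 of 19 differed from heterozygous by the test. The list's medians were -1.71 and -1.15. The lower calls rest on the values as deposited, in which the median probe set lay at -0.74 for homozygous minus wild type. The lowest against wild type were Fgf4 (-3.03), Pou5f1 (-2.48), Utf1 (-2.35) and Sox2 (-2.25). Their part in the values of the collagen folding genes was not tested.

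The genes whose profile over the 4 arrays lay nearest to that of the brighter P4ha1 probe set were Sparc, Gsn, Fst, Cited1 and Tinagl1. The measure was the Euclidean distance of the centred log2 values, between 0.930 and 1.11 for these genes, against a median of 5.99 over 13728 genes. For example, Tinagl1, a secreted matrix protein gene, read 79.2 and 30.8 in ko1 and ko2, against 0.978 in heterozygous and 2.19 in wild type. Nearest to the brightest Serpinh1 probe set were Glipr1, Gsn, P4ha1 itself, Sox17 and Lama1, at distances between 1.30 and 1.70. Gsn, which encodes the actin-severing protein gelsolin, was in both lists, at 63.6 and 38.1 in ko1 and ko2, against 0.315 in heterozygous and 3.57 in wild type. With 4 arrays such a likeness says only that the same arrays were high and low.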

How the data were processed

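Biotin-labelled RNA from each of the 4 cultures went onto 1 array, per the labels. The authors deposited linear intensities, 1 signal for each probe set, and per the submitters' processing notes the software was MAS5. Its version and scaling target were not stated in what was used here. Symbols came from the platform annotation: of 45101 probe sets 34945 had 1 symbol, 932 several and 9160 none, besides 64 controls. Tests and differences use log2(signal + 0.675), with a pseudocount equal to the 20th percentile of the values; this understates changes of dim genes. Probe sets whose mean signal exceeded the filter (the 40th percentile of the probe set means) were fitted with limma 3.58.1 in R 4.3.3. The fit had 1 mean per genotype, eBayes with an intensity trend and Benjamini-Hochberg adjustment over all fitted probe sets at 0.05. The only residual degree of freedom is the difference between the homozygous lines (24.3 in total with what limma borrowed), and the lone arrays were assumed to vary likewise. A probe set at or below the background of every array on the dimmer side has only a bound: its fold is at least the brighter mean over that background relative to the median probe set, or the fitted fold where smaller. Promoters came from RefSeq and were searched for 6 of 10 members. Any member promoter on chromosome 18, where Lox lies, was left out. The genes, lists and tests were chosen with earlier results of these data known. The rule for names took all member probe sets, called genes of each related list where these were 6 or fewer, the paralogs, the prolyl 3-hydroxylase complex, Colgalt1 and the type IV chains, and the 5 nearest profiles; Fkbp10 is not analysed here, and the other marker genes and collagen chains were chosen after their values were seen. The fit was also run on simulated data in which all 4 arrays varied alike, so that run cannot show whether the lone arrays do. Alternatives were other pseudocounts, quantile and median scaling, no filter, no trend, 1 value per gene, a fit of 2 groups (homozygous against the other arrays) and leaving out each homozygous array.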

Additional observations from a re-analysis of the deposited data

How the results depend on the processing

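For homozygous minus wild type the 6 calls became 0 without the filter on dim probe sets, 0 without the intensity trend and 0 with probe sets averaged per gene, and lay between 5 and 6 with either other pseudocount, quantile normalization, median centring and the fit of 2 groups, and at 4 of 8 genes on the brightest probe set. In a fit of 2 groups chosen after seeing the data, ko2 alone or ko1 alone against wild type and heterozygous together gave 2 calls each, the brighter P4ha1 and the _x_at Serpinh1 probe set. Leaving out ko1 or ko2 from the fit by genotype leaves no residual degree of freedom; the median of the 11 probe sets was then 3.22 without ko1 and 3.62 without ko2. For homozygous minus heterozygous the 6 calls became 2 without the filter, 0 without the trend and 3 with probe sets averaged, and the medians were 3.39 without ko1 and 3.15 without ko2. For heterozygous minus wild type, 1 call (Serpinh1, lower) appeared on the brightest probe set per gene, and small differences changed sign: Plod2 to -0.057 on 1 probe set and P4hb to 0.10 after quantile normalization, and both Plod2 probe sets to -0.13 without the filter. P4ha2 lost its call against wild type, and against heterozygous (limma adjusted p = 0.0606), with a sixteenth (1/16) of the pseudocount. No tested member's difference of homozygous from wild type or heterozygous changed sign in any setting tried, except Lox against heterozygous without ko1 (-0.19). Over all probe sets the calls against wild type were 57 higher and 54 lower, but 97 and 24 after median centring and 92 and 12 after quantile normalization. No paired analysis was possible because only the homozygous group holds more than 1 array. The causes of these changes were not tested.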
